A study of Mus musculus with 4 samples.

Results

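The genes described here copy chromosomal DNA or supply its building blocks. They are 57 genes chosen by function: the MCM helicase, origin licensing and helicase activation factors, replicative polymerases, the sliding clamp and its loader, enzymes that finish lagging strands, nucleotide-synthesis enzymes, histone chaperones of the fork, E2F transcription factors and topoisomerase II alpha. The choice was made with earlier results of these data known. All 57 symbols were found in the deposited table of 24346 gene rows. RNA had been sequenced from regulatory T (Treg) cells, the Foxp3-expressing CD4+ T cells that restrain immune responses. The dKO group consisted of 2 libraries labelled Tcf1-/-Lef1-/-, from mice whose genes for both transcription factors were floxed, and the WT group of 2 libraries from mice with wild-type alleles. Mice of both groups were male, aged 16 weeks, and carried Foxp3-Cre, which acts in cells that have turned on Foxp3. Treg cells were sorted from spleen as Thy1.2+ CD4+ cells with the Foxp3-Cre-GFP reporter. The sources used here give neither the number of mice behind a library nor whether mice were pooled. Libraries are called dKO_0, dKO_1, WT_0 and WT_1 after their columns, and values are FPKM, sequenced fragments scaled by transcript length and by the number of mapped fragments.

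Replication starts at origins that are bound by the origin recognition complex (ORC) and loaded in G1 phase with the ring-shaped MCM helicase by Cdc6 and Cdt1. In S phase, Cdc45 and the GINS complex turn the ring into a working helicase, and polymerases, the PCNA clamp and ribonucleotide reductase follow. Many of these genes are transcribed under E2F factors as cells leave quiescence, so their transcripts are low in resting lymphocytes and high in dividing ones. In bulk libraries such as these, a larger share of dividing cells and more RNA per cell cannot be told apart.

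Treg identity was examined before the comparison. Foxp3, the lineage factor, had 133 and 144 FPKM in dKO_0 and dKO_1, and 113 and 121 FPKM in WT_0 and WT_1, and all 8 Treg and T cell markers in the table were detected in every library. Lef1 had 41.3 and 36 FPKM in dKO and 59.9 and 66.5 FPKM in WT (limma adjusted p = 0.113), and Tcf7, the gene of Tcf1, had 247 and 249.6 FPKM in dKO and 345 and 309 FPKM in WT (limma adjusted p = 0.158). Gene-level FPKM can include exons outside the floxed part, so they do not measure the deletion. Markers of other cells were present and uneven between libraries. The summed FPKM of 8 B cell markers, of which 8 were higher in dKO, was 128 and 189 in dKO and 131 and 48.7 in WT. That of 4 neutrophil markers, of which 0 were higher, was 55.4 and 89.8 in dKO and 294 and 67.9 in WT. That of 4 erythroid markers was 2.24 and 6.37 in dKO and 10.7 and 1.27 in WT, with Hba-a1 and Hbb-bs under 1 in each library. Plasma cell markers, 0 of 5 higher in dKO, summed to 223 and 182 in dKO and 385 and 280 in WT. Monocyte and macrophage markers, 0 of 6 higher, summed to 250 and 224 in dKO and 247 and 333 in WT. NK cell markers, 1 of 4 higher, summed to 11.1 and 11.7 in dKO and 13.6 and 14.1 in WT. Dendritic cell markers summed to 8.64 and 8.65 in dKO and 9.53 and 11.2 in WT, and CD8 T cell markers to 9.8 and 10.1 in dKO and 8.21 and 8.43 in WT. No marker of these lists passed the limma test. Depth, estimated from the value of a single read in low genes, was 23.3 M and 25 M reads in dKO and 19.1 M and 23 M reads in WT.

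The replication transcripts were higher in dKO than in WT Treg cells across nearly the whole list, but no member passed the test over all rows. The summed FPKM of the 57 genes was 1407 in dKO_0 and 1441 in dKO_1, against 1163 in WT_0 and 982 in WT_1. Both dKO libraries thus lay above both WT libraries, and the WT libraries stood farther apart than the dKO libraries. With limma on log2(FPKM + 1), 0 of 57 members had an adjusted p under 0.05, beside 0.345% of the 11595 rows tested. At an unadjusted p under 0.05, 41 members were higher and 0 were lower in dKO, beside 9.64% and 7.08% of all rows. On the log2(FPKM + 1) scale, the median of dKO minus WT was 0.40 for the members and 0.01 for all rows tested. Since the members were chosen with earlier results of these data known, their counts beside the shares of all rows are descriptive.

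Library by library, 52 of 57 members had non-overlapping groups with dKO higher, which held for 27.8% of all rows tested. Orc5 alone was lower in both dKO libraries, beside 23.4% of all rows. The groups overlapped for Orc2, Orc3, Orc4 and Rfc5. All 57 members reached the filter of at least 1 FPKM in at least 2 libraries, but Orc1 and E2f7 did so through their dKO libraries alone and so could hardly have been lower there. Of the 55 others, 50 had dKO higher without overlap, and 40 were higher at an unadjusted p under 0.05. In the authors' deposited lists, 13 members stood as higher and 0 as lower in dKO, beside 1.56% and 1.21% of the rows tested. Those 13 were Mcm3, Gmnn, Cdc45, 2810417H13Rik, Dtl, Fen1, Lig1, Rrm2, Asf1b, Chaf1a, E2f7, E2f8 and Top2a. Without Orc1 and E2f7, 12 stood as higher.

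**Figure D1:**
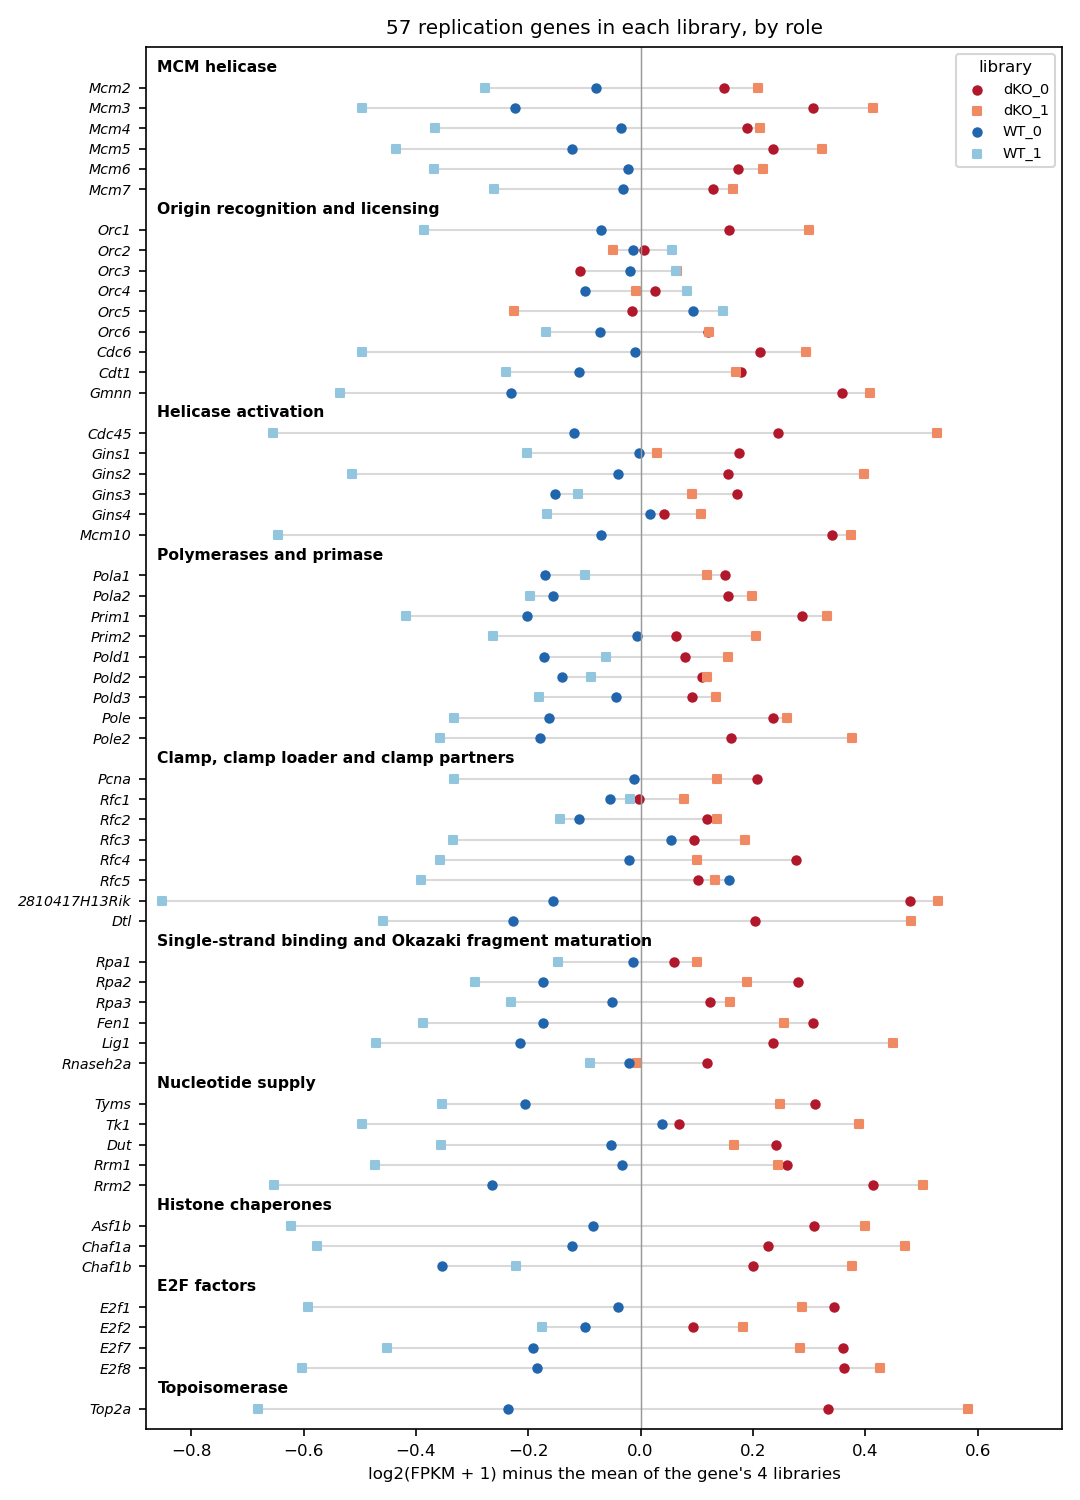
Each row is a gene, each point 1 library (dKO_0 and dKO_1 in reds, WT_0 and WT_1 in blues), and the x axis is log2(FPKM + 1) minus the mean of that gene's 4 libraries. In 52 of 57 genes both dKO points lie right of both WT points, and Orc2, Orc3, Orc4, Orc5 and Rfc5 are the exceptions.

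The size of the gap depended on which WT library was used. WT_1 was the lowest library for 47 of 57 members, beside 30.7% of all rows. The median member difference was 0.29 for dKO_0 minus WT_0 and 0.29 for dKO_1 minus WT_0. It was 0.54 for dKO_0 minus WT_1 and 0.52 for dKO_1 minus WT_1, so the choice of dKO library mattered little. Within groups it was 0.04 for dKO_1 minus dKO_0 and 0.23 for WT_0 minus WT_1. The gap between the WT libraries was therefore nearly as large as the gap from WT_0 up to either dKO library, while medians over all rows were between -0.00 and 0.01 in these 6 pairs. Markers of B cells were also lowest in WT_1, and markers of neutrophil and erythroid cells highest in WT_0. Their part in the result was not tested.

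**Figure D2:**
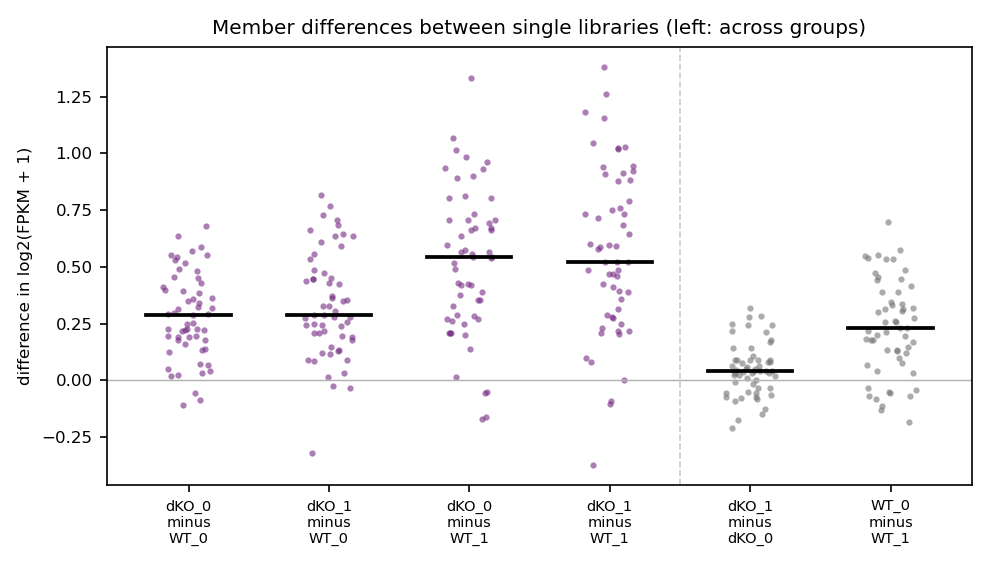
Each point is 1 of the 57 genes, the y axis is the difference in log2(FPKM + 1) between 2 single libraries, purple points compare dKO with WT libraries, grey points libraries of 1 group, and the black bar is the median. Medians across groups are 0.29 against WT_0 and 0.52 to 0.54 against WT_1, while those within groups are 0.04 (dKO) and 0.23 (WT).

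General dividing-cell markers, which are not members, followed the same order of libraries. The summed FPKM of Mki67, Ccnb1, Ccna2, Birc5 and Cdk1 was 104 and 113 in dKO_0 and dKO_1, against 69 in WT_0 and 46.9 in WT_1. Mki67, the gene of the Ki-67 proliferation antigen, had 25.4 and 29.4 FPKM in dKO and 18.1 and 13.1 FPKM in WT (log2 difference 0.79, limma adjusted p = 0.171). Its groups did not overlap, which held with dKO higher for 27.8% of all rows tested, and it was lowest in WT_1 as most members were. All 5 markers were higher in dKO, with a median log2 difference of 0.85 against 0.40 for the members, and limma called 0 of them. They all stood in the authors' list of higher genes, which held 1.56% of the rows tested.

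E2F motifs were more frequent in the members' promoters than in promoters at large. The choice of genes did not use motifs. Many replication genes are transcribed under E2F factors, however, so this frequency is not independent of a choice by function. RefSeq promoter windows of 250 bases before to 50 after a gene's start (GRCm38.p6) were matched for 49 of the 57 members, the others being Mcm4, Gmnn, Gins1, Gins2, Gins4, Prim2, Pole and Rfc2. A gene with several windows counted once, as holding a motif if any of its windows did. Windows were searched on both strands for the E2F octamers TTTCGCGC, TTTGGCGC, TTTCCCGC and TTTGCCGC. A match was found for 19 of 49 members (38.8%), against 2.6% of 27025 genes with such windows and 4.77% of the 8736 of these genes whose rows were tested. Of the 25 matches, 17 began within 50 bases, on either side, of the start used for their window, and 0 were to TTTGCCGC. Matches on opposite strands that overlap were counted separately. The sites below, from genes described in the following paragraphs, show the octamer in capitals with its flanks, written 5′ to 3′ on the gene's strand. Positions count from the start used for the window that holds the match, with negative positions before it. This start can differ from that of the annotated gene. Lig1 had 3 windows, and its annotated gene begins at 13277283, upstream of the site shown. A site written GCGGGAAA or GCGCGAAA is a match on the opposite strand.
Mcm5 (chr8:75109345-75109374, plus strand, match from position -153): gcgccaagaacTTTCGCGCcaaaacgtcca
Mcm3 (chr1:20820275-20820304, minus strand, match from position 20): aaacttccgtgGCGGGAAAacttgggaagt
Orc1 (chr4:108579416-108579445, plus strand, match from position -27): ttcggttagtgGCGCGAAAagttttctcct
Cdc6 (chr11:98908002-98908031, plus strand, match from position -138): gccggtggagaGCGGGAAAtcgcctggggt
2810417H13Rik (chr9:65890307-65890336, plus strand, match from position -5): gcttggagcgcGCGGGAAAgagacccattt
Dtl (chr1:191575534-191575563, minus strand, match from position -8): cgtgacgtcagTTTGGCGCggagtttggcg
Lig1 (chr7:13278841-13278870, plus strand, match from position 27): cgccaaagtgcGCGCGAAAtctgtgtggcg
E2f7 (chr10:110745230-110745259, plus strand, match from position -198): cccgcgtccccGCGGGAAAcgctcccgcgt

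By role, a match was found in 4 of 5 MCM helicase genes with a window, 4 of 8 origin and licensing genes, 1 of 3 helicase activation genes, 4 of 7 polymerase genes and 3 of 7 clamp genes. It was found in 1 of 6 genes of single-strand binding and Okazaki fragments, 0 of 5 nucleotide-supply genes, 0 of 3 chaperone genes, 2 of 4 E2F genes and not in Top2a. Differences between these small groups were not tested. Mcm6 had the most, with 3 matches at positions -110, -106 and -47, of which the first and the second overlap as TTTGGCGC and the reverse of TTTCGCGC. Its 250 bases before the start are shown with the matches in capitals.
Mcm6 (chr1:128359706-128359955, minus strand): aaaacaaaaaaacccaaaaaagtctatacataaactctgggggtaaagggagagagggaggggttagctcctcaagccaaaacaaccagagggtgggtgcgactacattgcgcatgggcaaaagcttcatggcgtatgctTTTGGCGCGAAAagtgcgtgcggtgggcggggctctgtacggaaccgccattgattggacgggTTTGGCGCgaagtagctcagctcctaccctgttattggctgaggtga

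The CCAAT box (CCAAT, both strands), a common element of cell-cycle promoters, was found for 32 of 49 members (65.3%), against 43.2% of tested genes with a window. Top2a held 6, the most of any member, and its 250 bases before the start are shown with them in capitals, ATTGG being the box on the opposite strand.
Top2a (chr11:99024190-99024439, minus strand): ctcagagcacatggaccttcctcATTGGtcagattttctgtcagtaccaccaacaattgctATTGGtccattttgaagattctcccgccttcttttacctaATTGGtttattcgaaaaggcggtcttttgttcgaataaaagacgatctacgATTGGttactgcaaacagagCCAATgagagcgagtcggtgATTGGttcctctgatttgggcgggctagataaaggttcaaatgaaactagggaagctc

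The TCF/LEF core (CTTTGAA or CTTTGAT, both strands), the kind of site that the deleted factors bind, was found in 1 of 49 members (2.04%), against 7.03% of tested genes with a window. That member was Fen1. No match says only that these letters are not in this window. The 19 members with an E2F match had log2 differences of -0.04 to 1.01 with a median of 0.39, and the 30 without had -0.24 to 0.92 with a median of 0.43. The ranges overlapped nearly throughout. A match describes sequence and does not show binding.

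Transcripts of the 6 MCM helicase subunits, Mcm2 to Mcm7, were higher in dKO together. Mcm3 (chromosome 1, 20802968 to 20820312, minus strand) had 43.6 and 47 FPKM in dKO_0 and dKO_1, against 29.9 and 24.6 FPKM in WT_0 and WT_1. Its mean was 45.3 ± 2.44 FPKM in dKO and 27.2 ± 3.77 FPKM in WT (SD, n = 2 each), a log2 difference of 0.72 with an SE of 0.113 (limma adjusted p = 0.122). Mcm3 had the largest difference of the 6. Mcm5 had 37.4 and 39.8 FPKM in dKO against 29 and 23.1 FPKM in WT (log2 difference 0.56, limma adjusted p = 0.17). Mcm6, the most abundant subunit, had 72 and 74.3 FPKM in dKO and 62.8 and 49.2 FPKM in WT (log2 difference 0.39, limma adjusted p = 0.266). Mcm7 had 49.8 and 51 FPKM in dKO and 44.5 and 37.7 FPKM in WT (log2 difference 0.29, limma adjusted p = 0.26). In all 6 genes the groups did not overlap, which held with dKO higher for 27.8% of all rows tested. In each of the 6, WT_1 was lowest and dKO_1 highest. Mcm2 and Mcm4 had log2 differences of 0.36 and 0.40. Cops6 and Ap4m1 overlap Mcm7 on the opposite strand. In all, 30 of the 57 members overlap another annotated gene somewhere in their span, introns included, and 15 overlap a protein-coding gene on the opposite strand. How far exons overlap was not examined. With the strand setting of the counting unknown, reads from exon bases shared with a gene on the opposite strand cannot be told apart. Per length, the 6 subunits spanned 1.95-fold in dKO, with Mcm4 lowest, and 2.15-fold in WT, with Mcm5 lowest.

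Within the origin recognition complex, Orc1 and Orc6 were higher in both dKO libraries, Orc5 was lower in both, and Orc2, Orc3 and Orc4 overlapped between groups. Orc1, the subunit whose level cycles in mammalian cells, had 1.11 and 1.32 FPKM in dKO and 0.797 and 0.445 FPKM in WT, or roughly 78 and 100 reads in dKO and 46 and 31 reads in WT. Its groups did not overlap (log2 difference 0.46, limma adjusted p = 0.311), and the value added before the logarithm shrinks this difference, since the ratio of its means was 1.95. Orc1 reached the filter through its dKO libraries alone, which limits what its direction can show. The core subunits gave other values. Orc2 had 9.55 and 9.16 FPKM in dKO and 9.4 and 9.92 FPKM in WT (log2 difference -0.04). Orc3 had 7.57 and 8.66 FPKM in dKO and 8.11 and 8.65 FPKM in WT (log2 difference -0.04). Orc4 had 12.4 and 12.1 FPKM in dKO and 11.3 and 13 FPKM in WT (log2 difference 0.02). The groups of these 3 genes overlapped and their limma adjusted p values were 0.801 to 0.937. Orc5 had 14.1 and 12 FPKM in dKO, against 15.3 and 15.9 FPKM in WT (log2 difference -0.24, limma adjusted p = 0.314), and was the member with the lowest difference. Orc6 had a log2 difference of 0.24. Orc1 was the scarcest subunit, and Orc5 exceeded it 10.8-fold in dKO and 25.1-fold in WT, while Orc2 to Orc5 lay within 1.61-fold of each other in dKO and 1.86-fold in WT.

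The loading factors and their inhibitor were higher in both dKO libraries. Gmnn, the gene of geminin, which binds Cdt1 and blocks relicensing (chromosome 13, 24751845 to 24761923, minus strand), had 28.4 and 29.5 FPKM in dKO_0 and dKO_1, against 18.6 and 14.9 FPKM in WT_0 and WT_1. Its mean was 28.9 ± 0.73 FPKM in dKO and 16.7 ± 2.63 FPKM in WT (SD, n = 2 each), a log2 difference of 0.77 with an SE of 0.119 (limma adjusted p = 0.122). The lowest dKO library was well above the highest WT library. Cdt1, its target, had 24.7 and 24.5 FPKM in dKO and 20 and 18.2 FPKM in WT (log2 difference 0.35, limma adjusted p = 0.158). Cdc6, the loading ATPase, had 3.26 and 3.52 FPKM in dKO and 2.65 and 1.61 FPKM in WT (log2 difference 0.51, limma adjusted p = 0.308). Both had non-overlapping groups, beside 27.8% of all rows tested. The transcript level of the inhibitor thus stood further above WT than that of Cdt1, at 1.73 against 1.29 times the WT mean, though the difference between these ratios was not tested.

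Helicase activation factors were higher in dKO in 6 of 6 genes, with non-overlapping groups, beside 27.8% of all rows tested. Cdc45, which joins the MCM ring at firing, had 8.13 and 10.1 FPKM in dKO and 6.1 and 3.89 FPKM in WT (log2 difference 0.77, limma adjusted p = 0.224). Mcm10, a further initiation factor, had 3.56 and 3.67 FPKM in dKO and 2.43 and 1.31 FPKM in WT (log2 difference 0.72, limma adjusted p = 0.245). In both genes the WT libraries were far apart, with WT_1 lowest. Of the GINS subunits, Gins2 had 10.5 and 12.6 FPKM in dKO and 9.04 and 6.23 FPKM in WT (log2 difference 0.55), with a q of 1 in the authors' deposited table. Gins4 had 29.3 and 30.7 FPKM in dKO and 28.8 and 25.3 FPKM in WT (log2 difference 0.15). Gins1 and Gins3 had log2 differences of 0.20 and 0.26. The 4 subunits spanned 5.38-fold in dKO and 6.03-fold in WT, with Gins4 highest and Gins3 lowest.

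All 9 polymerase and primase genes were higher in both dKO libraries, beside 27.8% of all rows tested, by 0.22 to 0.62 on the log2 scale. Prim1, the catalytic primase subunit, had 14.1 and 14.5 FPKM in dKO and 9.74 and 8.24 FPKM in WT (log2 difference 0.62, SE 0.0988, limma adjusted p = 0.125). Its partner Prim2 differed by 0.27. Pole2, an accessory subunit of the leading-strand polymerase epsilon, had 4.65 and 5.56 FPKM in dKO and 3.46 and 2.94 FPKM in WT (log2 difference 0.54, limma adjusted p = 0.185), and the catalytic subunit Pole differed by 0.50. Of the accessory epsilon subunits outside the 57 genes, Pole3 differed by 0.27 and Pole4 by -0.03. Polymerase delta copies the lagging strand. Pold2 had 39.7 and 39.9 FPKM in dKO and 33.2 and 34.4 FPKM in WT (log2 difference 0.23, limma adjusted p = 0.189), and Pold1 had 22.2 and 23.4 FPKM in dKO and 18.5 and 20 FPKM in WT (log2 difference 0.23, limma adjusted p = 0.249). For these 2 genes, and for Pola1, WT_0 and not WT_1 was the lowest library. The catalytic subunit Pola1 was at 4.63 FPKM in dKO and 3.67 FPKM in WT, and its partner Pola2 stood 4.39-fold above it in dKO and 4.27-fold above it in WT.

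The clamp gene Pcna was the most abundant member. It had 239 and 228 FPKM in dKO and 205 and 164 FPKM in WT (log2 difference 0.34, SE 0.125, limma adjusted p = 0.29). Processed copies named Pcna-ps1 and Pcna-ps2 are annotated, and Tyms has Tyms-ps, and since the counting of reads shared with such copies is unknown, both levels are uncertain. The largest difference of all members was that of 2810417H13Rik, now named Pclaf, which encodes the PCNA-associated factor (chromosome 9, 65890237 to 65903266, plus strand). It had 28.4 and 29.5 FPKM in dKO_0 and dKO_1, against 18 and 10.7 FPKM in WT_0 and WT_1 (limma adjusted p = 0.187). Its mean was 29 ± 0.726 FPKM in dKO and 14.3 ± 5.14 FPKM in WT (SD, n = 2 each), a log2 difference of 1.01 with an SE of 0.245. Its WT libraries differed by more than its dKO libraries, and even WT_0 lay well under both dKO libraries. Trip4 overlaps it on the opposite strand. Dtl, which targets Cdt1 for degradation at PCNA, had 3.68 and 4.67 FPKM in dKO and 2.47 and 1.96 FPKM in WT (log2 difference 0.68, limma adjusted p = 0.176). The 5 clamp loader genes differed by less than Dtl, from 0.07 (Rfc1) to 0.38 (Rfc4), the latter above the 0.34 of Pcna. Rfc2, the most abundant, had 44.5 and 45.1 FPKM in dKO and 37.9 and 37 FPKM in WT (log2 difference 0.25, limma adjusted p = 0.164). Rfc1, the large subunit, differed by 0.07, and Rfc5 overlapped between groups, since WT_0 at 16.9 FPKM was its highest library.

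Genes of single-strand binding and of Okazaki fragment joining were higher in both dKO libraries in 6 of 6 cases, beside 27.8% of all rows tested. Lig1, the ligase that seals lagging-strand nicks, had 25 and 29.2 FPKM in dKO and 18 and 14.9 FPKM in WT (log2 difference 0.69, SE 0.127, limma adjusted p = 0.148). Fen1, the flap nuclease, had 25.1 and 24.2 FPKM in dKO and 17.7 and 15.1 FPKM in WT (log2 difference 0.56, SE 0.0939, limma adjusted p = 0.127). Both were among the authors' higher genes, with non-overlapping groups here. The abundant Rpa1, of the trimer that coats single-stranded DNA, had 63.1 and 64.9 FPKM in dKO and 59.9 and 54.5 FPKM in WT (log2 difference 0.16, limma adjusted p = 0.344). Rpa3 had 42.2 and 43.2 FPKM in dKO and 37.2 and 32.8 FPKM in WT (log2 difference 0.28, limma adjusted p = 0.226). Rpa2 had the largest difference of the trimer, 0.47. Rnaseh2a, which acts on RNA in DNA, differed by 0.11.

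Among nucleotide-supply enzymes, Rrm2 stood out in size. Rrm2, the small subunit of ribonucleotide reductase, whose level limits the enzyme in cycling cells (chromosome 12, 24708241 to 24714146, plus strand), had 40.5 and 43.2 FPKM in dKO_0 and dKO_1, against 24.9 and 18.8 FPKM in WT_0 and WT_1. Its mean was 41.9 ± 1.89 FPKM in dKO and 21.9 ± 4.32 FPKM in WT (SD, n = 2 each), a log2 difference of 0.92 with an SE of 0.146 (limma adjusted p = 0.124). The large subunit Rrm1 had 23.8 and 23.5 FPKM in dKO and 19.2 and 13.9 FPKM in WT (log2 difference 0.50, limma adjusted p = 0.254). Per length, Rrm2 exceeded Rrm1 1.77-fold in dKO and 1.32-fold in WT. Tyms, which makes thymidylate, had 7.32 and 6.97 FPKM in dKO and 4.82 and 4.25 FPKM in WT (log2 difference 0.56, limma adjusted p = 0.131). Dut, which clears dUTP, had 30 and 28.4 FPKM in dKO and 24.3 and 19.5 FPKM in WT (log2 difference 0.41, limma adjusted p = 0.234). The thymidine salvage gene Tk1 had 21.7 and 27.3 FPKM in dKO and 21.2 and 14.4 FPKM in WT (log2 difference 0.46). For all 5 genes the groups did not overlap, beside 27.8% of all rows tested with dKO higher, though for Tk1 dKO_0 was hardly above WT_0.

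**Figure D3:**
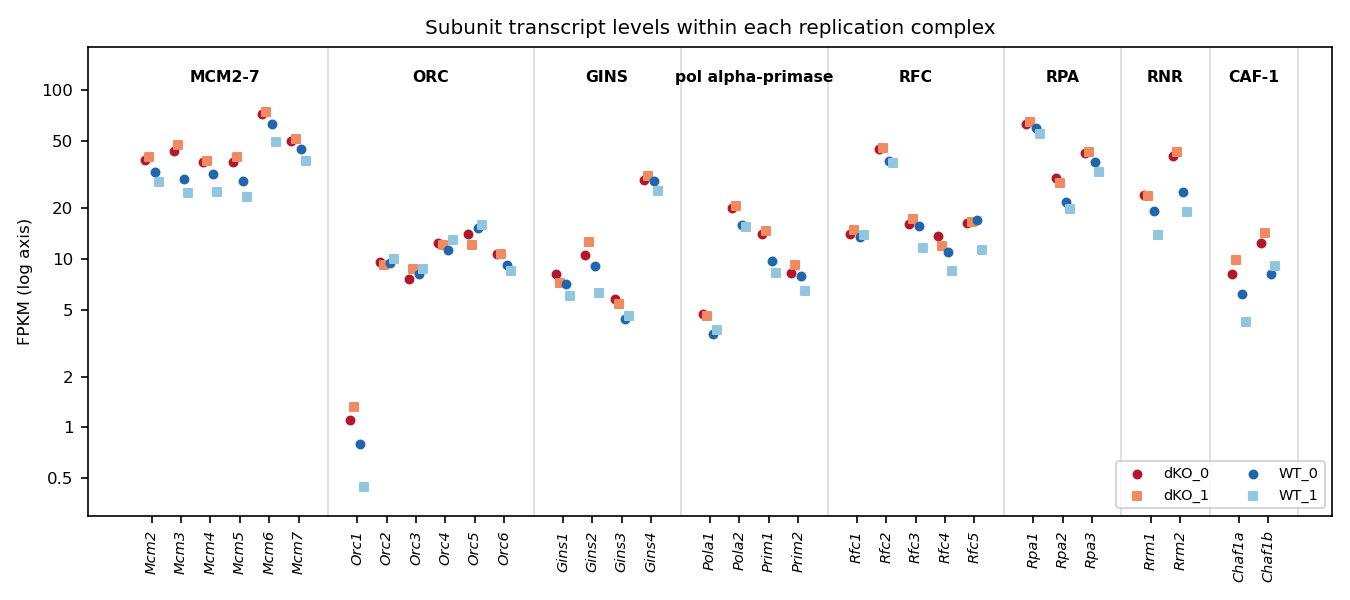
FPKM on a log axis for subunits of 8 complexes, with 1 point per library (dKO_0 and dKO_1 in reds, left of WT_0 and WT_1 in blues). Orc1 lies 10.8-fold under Orc5 in dKO and 25.1-fold in WT, while the 6 MCM subunits lie within 1.95-fold in dKO and 2.15-fold in WT.

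Histone chaperones, which load histones on new DNA, were higher in dKO in 3 of 3 genes with non-overlapping groups, beside 27.8% of all rows tested. Asf1b had 19.2 and 20.6 FPKM in dKO and 14.4 and 9.62 FPKM in WT (log2 difference 0.71, limma adjusted p = 0.217). The CAF-1 subunit genes Chaf1a and Chaf1b had 8.11 and 9.78 FPKM, and 12.5 and 14.2 FPKM, in dKO, against 6.15 and 4.22 FPKM, and 8.17 and 9.05 FPKM, in WT. Their log2 differences were 0.70 and 0.58 (limma adjusted p = 0.215 and 0.132). Chaf1b was lowest in WT_0 and Chaf1a in WT_1.

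The 4 E2F genes among the members, which encode activators (E2f1 and E2f2) and repressors of the same promoters (E2f7 and E2f8), were all higher in dKO. E2f8 had 5.39 and 5.68 FPKM in dKO and 3.38 and 2.28 FPKM in WT (log2 difference 0.79, SE 0.169, limma adjusted p = 0.165). E2f7 had 1.6 and 1.47 FPKM in dKO and 0.775 and 0.481 FPKM in WT, or about 204 and 200 reads in dKO and 81 and 61 reads in WT (log2 difference 0.64, limma adjusted p = 0.193). The ratio of its means, 2.44, was the highest among the members. However, E2f7 reached the filter through its dKO libraries alone and so could hardly have been lower there. E2f1 had 5.67 and 5.41 FPKM in dKO and 4.11 and 2.48 FPKM in WT (log2 difference 0.63, limma adjusted p = 0.264), while the more abundant E2f2 had 23 and 24.5 FPKM in dKO and 20 and 18.9 FPKM in WT (log2 difference 0.27, limma adjusted p = 0.197). Groups did not overlap in these 4 genes, beside 27.8% of all rows tested with dKO higher. The other E2F genes tested had differences of -0.05 (E2f3), 0.11 (E2f4), -0.30 (E2f5) and -0.08 (E2f6), so the 4 members do not stand for the family. Top2a, which untangles replicated chromosomes, had 38.3 and 45.7 FPKM in dKO and 25.5 and 18.5 FPKM in WT (log2 difference 0.92, SE 0.182, limma adjusted p = 0.158).

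The calls depended on which rows and libraries entered the fit. With rows of small RNAs (microRNAs, snoRNAs and the like) left out, Mcm3, Gmnn and Rrm2 were called as higher in dKO, beside 1.13% of rows. The limma adjusted p was 0.0421 for each, while their log2 differences stayed at 0.72, 0.77 and 0.92. Mcm3 was called in 2 of 13 alternatives, and Gmnn and Rrm2 in 3 each. Over those 13 the adjusted p ranged from 0.0348 to 0.575 for Mcm3, from 0.0265 to 0.575 for Gmnn and from 0.0202 to 0.575 for Rrm2. Without WT_1, the library in which most members were lowest, the median difference was 0.28, and 2810417H13Rik, Gmnn and Rrm2 were called beside 1.9% of rows. Without WT_0 it was 0.55 and 12 members were called, beside 1.55% of rows. The size of the difference and the count of calls thus depended on the WT library. Without dKO_0 or without dKO_1, 0 members were called, 55 members entered the test, the median was 0.39 and 0.38, and 0.0175% of rows were called. At an unadjusted p under 0.05, 21 members were higher without dKO_0, beside 4.11% of rows, and 15 without dKO_1, beside 4.21% of rows, where all libraries together gave 9.64%.

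Other genes of replication, nucleotide synthesis and E2F control gave a weaker picture. Of 91 such genes, all of which entered the test, 70 had a higher and 21 a lower mean log2 value in dKO, and limma called 0. At an unadjusted p under 0.05, 21 were higher and 1 was lower, beside 9.64% and 7.08% of all rows. The groups did not overlap with dKO higher in 46 and with dKO lower in 11, beside 27.8% and 23.4% of all rows. The median log2 difference was 0.11, against 0.40 for the members. Both lists were chosen with earlier results of these data known, and the contrast between them was not tested. The authors' lists held 2 of the 91 as higher, Clspn and Uhrf1, and 1 as lower, Mthfd2, which is near the 1.56% and 1.21% of all rows listed. Clspn, the gene of the fork-protection protein claspin, had 4.6 and 4.75 FPKM in dKO and 2.73 and 2.22 FPKM in WT (log2 difference 0.71, limma adjusted p = 0.127). Uhrf1, which guides DNA methylation to replicated DNA, had 21.9 and 25.1 FPKM in dKO and 15.6 and 10.4 FPKM in WT (log2 difference 0.83, limma adjusted p = 0.19). With small RNA rows left out, limma called Tipin, a partner of the fork protein Timeless that was named after its values were seen, at 19.4 and 20 FPKM in dKO and 13.1 and 11 FPKM in WT (adjusted p = 0.0449, with 0.0369 to 0.578 over the alternatives).

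Mthfd2 had the opposite sign. This mitochondrial enzyme of folate one-carbon metabolism, which feeds purine synthesis, had 20.1 and 22.2 FPKM in dKO_0 and dKO_1, against 39.5 and 33.2 FPKM in WT_0 and WT_1 (log2 difference -0.75, SE 0.11, limma adjusted p = 0.118, with 0.0392 where small RNA rows were left out and 0.0357 to 0.516 over 13 alternatives). E2f5 was the next lowest, at 4.35 and 3.89 FPKM in dKO and 5.7 and 4.9 FPKM in WT (log2 difference -0.30, limma adjusted p = 0.304). Shmt2, another mitochondrial enzyme of the folate cycle, had 41.1 and 39.4 FPKM in dKO and 32.7 and 34.3 FPKM in WT (log2 difference 0.26, limma adjusted p = 0.185) and so lay on the other side of WT. Shmt2 was named after its values were seen.

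**Figure D4:**
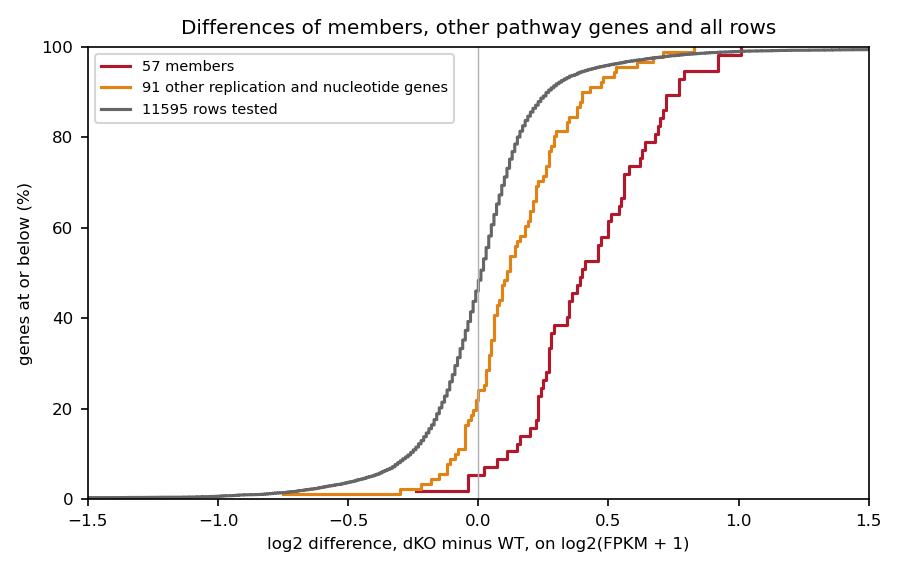
Cumulative share of genes (y axis, percent) at or below each log2 difference, dKO minus WT (x axis), for the 57 members, the 91 other replication and nucleotide genes and the 11595 rows tested. The member curve lies to the right, with a median of 0.40 against 0.11 and 0.01.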

How the data were processed

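Per the submitters' processing notes, FastQC, TopHat2 (2.1.0), Cuffdiff (2.2.1) and mm10 were used by the authors; the sources used here give no annotation or strand setting. The deposited table holds FPKM per library, besides the authors' log2 fold changes, p-values and q-values. Their lists of higher and lower genes equal the rows with q under 0.05, at least 1.5-fold change and at least 1 FPKM where higher. Column suffixes match no titled replicate, so columns were tied to groups by name. No label names separate animals as replicates: the p-values reflect the spread between these libraries, possibly technical.

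The 11595 rows with at least 1 FPKM in at least 2 libraries were tested with limma (3.58.1; R 4.3.3) on log2(FPKM + 1), with an intensity trend, two-sided, and Benjamini-Hochberg adjustment over all rows; the script was tested on simulated data. No count test was run, because FPKM are not counts. The fit had 2 residual degrees of freedom. Estimated reads rest on the FPKM of a single read and the longest annotated transcript, and are approximate. Gene positions are GENCODE's on GRCm38, and sequences RefSeq's on GRCm38.p6. Members, lists and rules were chosen with earlier results of these data known. Named in full are, per role, the members highest in level and in difference, those in the authors' lists and those opposite in sign; others appear where the text compares them. Sequences were chosen with their matches known, and planned promoters without an E2F match are not printed. A ranking by likeness of pattern, over 4 libraries, is not given. Alternatives were another pseudocount, other filters and scalings, no trend, small RNA rows left out, a replicate block, the authors' q and each library left out.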

Additional observations from a re-analysis of the deposited data

How the results depend on the processing

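The median member difference, 0.40, was 0.28 to 0.55 with a library left out and 0.37 to 0.41 with another pseudocount, filter or scaling. Rows called numbered 40, against 16 with no filter, 132 with at least 1 FPKM in all 4 libraries, 186 with small RNA rows left out, 375 by the authors' deposited q, and 2 to 217 with a library left out. Members called numbered 0, against 3 with small RNA rows left out, 14 by the authors' deposited q and 0 to 12 with a library left out. Members higher at an unadjusted p under 0.05 numbered 41, against 15 to 47 with a library left out (beside 4.11% to 13.5% of all rows) and 40 without the 2 members that pass the filter through dKO alone, an alternative chosen after seeing the data. Rows called made up 0.345% of all rows tested, against 1.64% with small RNA rows left out. By the authors' deposited q they were 375 of 24346 rows. Shares for the fits with a library left out stand beside their calls above. The 14 members by the authors' q are the 13 in their list of higher genes and Mcm5 (q = 0.0195). Mcm5 stood at 1.48 times its WT mean, under the 1.5-fold that the list required. With a library left out, the lone library is assumed to vary like the other group, and the fit has fewer samples. Orc3 had differences of -0.13 to 0.04 with a library left out, positive without dKO_0. Of 478 alternative values for 37 named members, 16 passed the threshold and 1 changed sign; as none passed it with all libraries and rows, the other 461 say little about stability. With the suffix as a replicate block, 7 rows and 0 members were called and 37 members were higher at an unadjusted p under 0.05, beside 8.99% of all rows. Deviations of libraries with the same suffix correlated at -0.11 across rows, so the crossed pairing was added, with 22 rows and 0 members called; the cause of these changes was not tested.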
